A study of Mus musculus with 21 samples.

Results

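The Egr factors and their Nab corepressors were followed as 5 genes, Egr1, Egr2, Egr3, Nab1 and Nab2, across every group of an antigen dose experiment in CD4+ T cells. They were taken by gene symbol and matched by identifier to the count table, which makes 5 of 47643 genes counted. All 5 passed the filter of at least 10 counts over all samples, as did 15300 genes in total. The family was picked with its levels already known, so its differences are given with their errors and without p-values.

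RNA was measured by 3′ mRNA sequencing in 21 libraries of splenic CD4+ T cells, 3 mice in each of 7 groups, to ask how the amount of antigen shapes the T cell response. All mice were Tg4 Nr4a3-Tocky Tiger animals: their T cell receptor is a transgene specific for a peptide of myelin basic protein (MBP), and they also hold a green reporter of Il10, and a Timer protein under Nr4a3 control that is blue when new and red once matured. The [4Y] MBP peptide was injected under the skin in saline at a dose of 0.8 µg or of 80 µg, and mice were killed 4 h, 12 h or 24 h later, and the control group was untreated. The sorted responders were Blue+Red- in the 4 h groups, Blue+Red+ in the 12 h groups and Blue-Red+ in the 24 h groups. Time and sorting gate therefore cannot be told apart. Per the methods, mice of both sexes were used, and the age is not given in the sources used here. A single transgenic receptor limits these cells as a model of a mixed repertoire, and the methods name no Timer gate for the control cells.

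Egr1, Egr2 and Egr3 are zinc finger transcription factors that T cells switch on within minutes of antigen receptor signaling, through ERK and the ternary complex of SRF with Elk proteins and, for Egr2 and Egr3, also through NFAT. Nab1 and Nab2 have no DNA binding of their own: they dock on the Egr proteins and repress transcription at Egr sites, and Nab2 is itself an Egr target, which closes a feedback loop. In T cells, Egr1 is linked to activation genes such as Il2, whereas Egr2 and Egr3 are known for roles in anergy and in restraint of the response.

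Library totals ranged from 2352800 to 6244279 counts, so 3 counts, the floor used here, are a small level in every library. All 9 CD4+ T cell markers were counted in every group, with summed levels (in CPM, counts scaled to a library total of 1e6) of 4188 to 4460 in the control. With 0.8 µg and 80 µg they summed to 2265 to 2437 and 1860 to 1972 at 4 h, to 1909 to 2026 and 2035 to 2155 at 12 h, and to 3544 to 3952 and 3797 to 4086 at 24 h, so the doses overlapped at 24 h alone. Marker levels of other cells moved with the groups as well. The 6 B cell markers summed to 383 to 424 CPM in the control and to 30.8 to 86.8 CPM over the groups of 4 h and 12 h, and at 24 h to 279 to 329 CPM with 0.8 µg and 378 to 403 CPM with 80 µg. The 2 markers of regulatory T cells (Foxp3 and Ikzf2) summed to 16.6 to 21.8 CPM with 0.8 µg and 24.4 to 31.0 CPM with 80 µg at 4 h, so the high dose was above the low dose, whereas the reverse held later. They summed to 110 to 136 CPM with 0.8 µg and 38 to 51.5 CPM with 80 µg at 12 h, and to 315 to 596 CPM and 153 to 185 CPM at 24 h. The 2 CD8+ T cell markers overlapped between doses at 4 h, and summed to 43.6 to 51.3 CPM with 0.8 µg and 13.1 to 22.7 CPM with 80 µg at 12 h and to 34.3 to 40.9 CPM and 20.1 to 28.8 CPM at 24 h. The 8 myeloid markers summed to 10.04 to 30.8 CPM with 0.8 µg and 2.08 to 8.13 CPM with 80 µg at 4 h, and overlapped between doses at 12 h and 24 h. The 4 red cell markers overlapped between doses at every time, with sums of 5.31 to 211 CPM. The 3 NK cell markers reached at most 4.49 CPM and the 5 dendritic cell markers at most 2.95 CPM in any library, and both were apart between doses at 24 h (NK cell markers 2.95 to 4.49 CPM with 0.8 µg and 0 to 1.63 CPM with 80 µg, dendritic cell markers 0.97 to 2.95 CPM and 0 to 0.16 CPM). Clec9a, which marks a dendritic cell subset, was at 0 in every library. The part of these cells in the results was not tested. In bulk RNA, fewer cells expressing a gene and less RNA per cell cannot be told apart.

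Promoter sequences are shown because Egr2 is a known target of SRF and Nab2 of the Egr factors. RefSeq windows of 250 bases before to 50 bases after a start site (GRCm38.p6) were given for 3 of the 5 genes, and each was searched on both strands for the CArG box that SRF binds, for the Egr site GCGNGGGCG and for the cAMP response element TGACGTCA, motifs that do not overlap here. Capitals mark the matches. Egr2 (ENSMUSG00000037868, chr10:67535475-67542188, plus strand, 13 exons) had 5 windows, 4 of which held a CArG box. The windows that start at 67537619, 67537620 and 67537680 overlap and hold the same box. The pair of Egr2 windows shown do not overlap, and each has its CArG box starting 72 bases before the start site. Nab1 (ENSMUSG00000002881, chr1:52457294-52500679, minus strand) had 1 window with 3 Egr sites, starting 141, 109 and 38 bases before the start site. Nab2 (ENSMUSG00000025402, chr10:127660918-127668568, minus strand) had 1 window, which held none of the 3 motifs. That window lies inside the gene span, so the bases before the upstream end of the span were not searched.
Egr2, chr10:67537316-67537615, plus strand: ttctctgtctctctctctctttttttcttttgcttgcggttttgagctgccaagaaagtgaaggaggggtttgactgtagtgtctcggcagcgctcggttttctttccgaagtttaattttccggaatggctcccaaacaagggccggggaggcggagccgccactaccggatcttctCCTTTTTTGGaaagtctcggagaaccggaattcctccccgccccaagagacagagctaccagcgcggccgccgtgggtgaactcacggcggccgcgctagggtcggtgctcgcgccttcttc
Egr2, chr10:67537619-67537918, plus strand: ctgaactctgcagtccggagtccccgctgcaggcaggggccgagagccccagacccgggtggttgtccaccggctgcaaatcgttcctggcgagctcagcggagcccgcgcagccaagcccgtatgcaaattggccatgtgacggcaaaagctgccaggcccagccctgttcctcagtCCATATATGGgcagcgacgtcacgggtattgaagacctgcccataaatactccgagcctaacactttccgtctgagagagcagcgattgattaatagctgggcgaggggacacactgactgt
Nab1, chr1:52500399-52500698, minus strand: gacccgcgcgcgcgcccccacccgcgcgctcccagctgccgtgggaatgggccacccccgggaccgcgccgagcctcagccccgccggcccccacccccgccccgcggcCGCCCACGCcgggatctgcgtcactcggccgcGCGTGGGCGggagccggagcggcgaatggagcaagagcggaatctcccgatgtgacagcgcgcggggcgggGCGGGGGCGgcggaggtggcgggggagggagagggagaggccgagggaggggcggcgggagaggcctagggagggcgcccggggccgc
Nab2, chr10:127666654-127666953, minus strand: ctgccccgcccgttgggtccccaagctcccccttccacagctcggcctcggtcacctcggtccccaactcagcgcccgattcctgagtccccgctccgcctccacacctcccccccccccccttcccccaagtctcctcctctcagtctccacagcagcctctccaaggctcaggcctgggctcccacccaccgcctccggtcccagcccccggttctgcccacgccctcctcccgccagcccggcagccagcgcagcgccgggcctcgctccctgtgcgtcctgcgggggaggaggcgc
Of 32851 windows of the same length over all genes, 1.63% held a CArG box, 5.55% an Egr site and 1.79% a cAMP response element. A match describes these letters and is not a bound site.

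The members did not move as a block with dose. At 4 h, Egr1, Egr3 and Nab2 were higher with the low dose, Egr2 was higher with the high dose, and Nab1 was similar in both (Nab1 differed by 0.22 on the log2 scale, SE 0.13). The lead of Egr2 with 80 µg held at 12 h and was turned round at 24 h. Counts were normalized by DESeq2 size factors, and a gene was called where DESeq2's Benjamini-Hochberg adjusted p was below 0.05 and its shrunken log2 fold change was above 1 in size. By that rule 3 of the 4 members tested were called between doses at 4 h, beside 5.85% of all genes, 2 at 12 h, beside 2.79%, and 3 at 24 h, beside 1.56%. Since the family was chosen on these values, nothing is read from those counts.

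**Figure D1:**
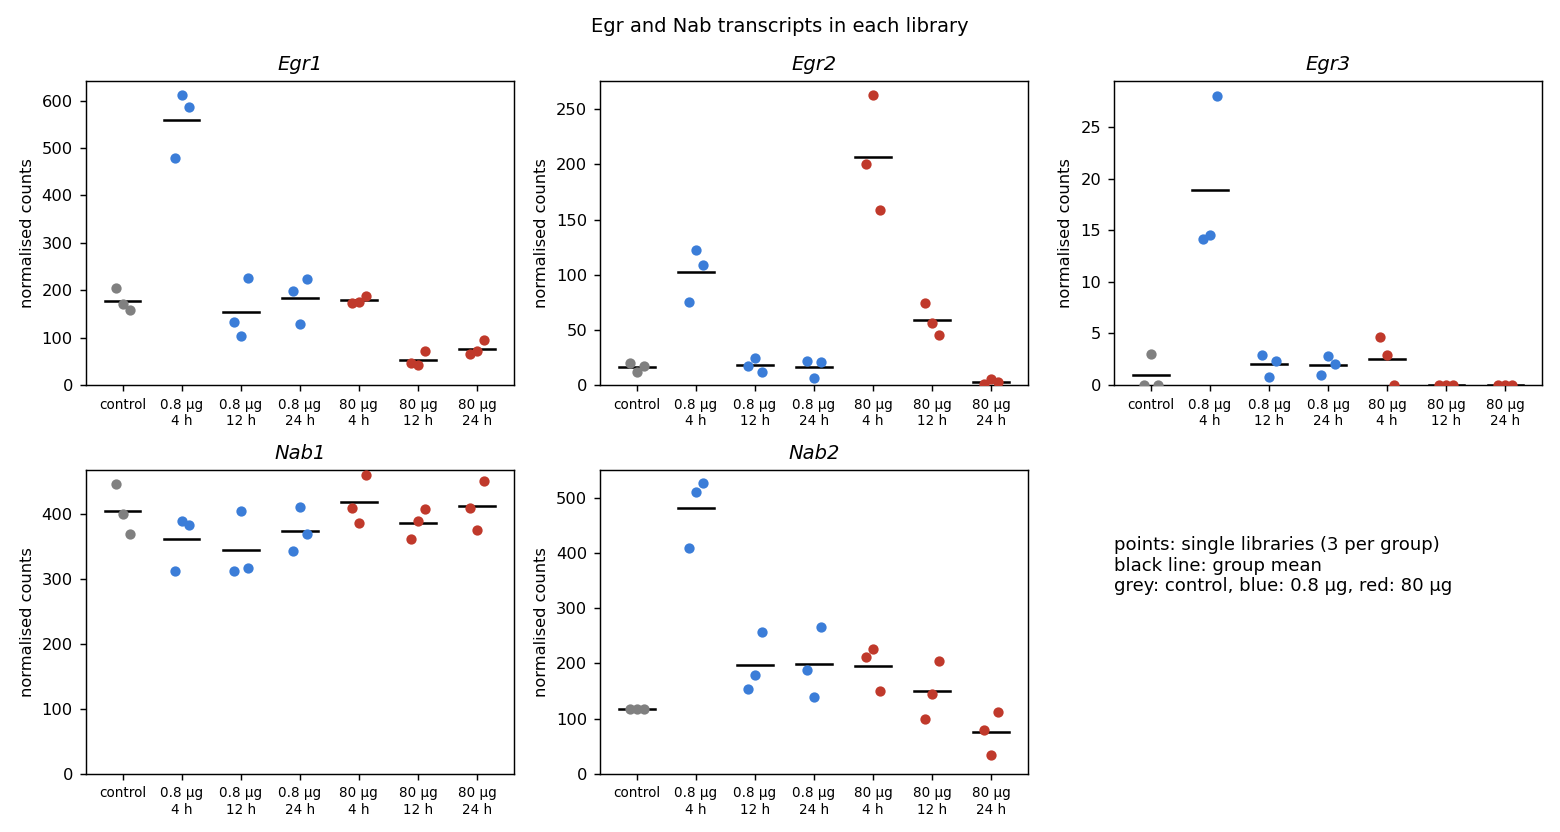
Normalized counts (y axis, linear, from 0) of the 5 members in every library, by group (x axis); points are the 3 libraries of a group and black lines their means. Egr1, Egr3 and Nab2 peak with 0.8 µg at 4 h, Egr2 peaks with 80 µg at 4 h (159 to 262), and Nab1 shows no group apart from the next.

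Egr1 encodes the factor most often used as a marker of early receptor signaling. It had 204, 170 and 158 normalized counts in the control libraries. With 0.8 µg at 4 h it had 479, 613 and 586, all above every other library of the study. With 80 µg at 4 h it had 174, 175 and 188, which overlaps the control. At this time, then, the low dose stood at 559 ± 70.4 normalized counts (SD, n = 3) and the high dose at 179 ± 7.73, beside 178 ± 23.7 in the control. The log2 fold change of 80 µg over 0.8 µg was -1.62 (SE 0.23), and that of 80 µg over control was 0.01 (SE 0.24).

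At 12 h Egr1 had 133, 104 and 225 normalized counts with 0.8 µg and 45.7, 42.6 and 71.0 with 80 µg. At 24 h it had 199, 129 and 223 with 0.8 µg and 64.7, 71.4 and 94.3 with 80 µg. The doses did not overlap at either time. The dose difference in Egr1 was thus of one sign throughout, with log2 fold changes of -1.51 (SE 0.25) at 12 h and -1.22 (SE 0.24) at 24 h. Against the control, the high dose stood lower by log2 fold changes of -1.72 (SE 0.25) at 12 h and -1.18 (SE 0.24) at 24 h, whereas the low dose gave -0.22 (SE 0.24) and 0.04 (SE 0.24). The call against control at 24 h was lost when replicate 1 of every group was left out, with a log2 fold change of -0.96. From 4 h to 12 h Egr1 was lower by a log2 fold change of -1.85 (SE 0.23) with 0.8 µg and of -1.73 (SE 0.25) with 80 µg, a like step from starting levels that differed 3.08-fold. In order of mean level, the 0.8 µg group at 4 h came first, the next 4 groups (0.8 µg at 24 h, 80 µg at 4 h, control and 0.8 µg at 12 h) overlapped their neighbors, and the 80 µg groups at 24 h and 12 h, which overlapped each other, came last. Egr1 lies at chr18:34859823-34864984 on the plus strand (ENSMUSG00000038418, 5 exons).

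Egr2 encodes a factor needed for restraint of T cell activation and for anergy. It had 19.6, 12.2 and 17.1 normalized counts in the control libraries. At 4 h it had 75.7, 123 and 109 with 0.8 µg and 200, 262 and 159 with 80 µg. Both doses stood above the control, and the high dose above the low dose with no overlap: the means were 16.3 ± 3.78, 102 ± 24.1 and 207 ± 52.3. Against the control the log2 fold change was 2.57 (SE 0.36) with 0.8 µg and 3.57 (SE 0.36) with 80 µg. Between doses it was 1.00 (SE 0.31), which lies on the threshold. The call at 4 h was lost in the fit to only the 6 samples compared (0.96), with no filter on low counts (0.9994), with a replicate block (0.99), without replicate 1 (0.84) or 2 (0.93) of every group, and without single libraries: 0.8 µg replicate 1 (0.85), 80 µg replicate 1 (0.99) or 80 µg replicate 2 (0.77).

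At 12 h Egr2 had 17.6, 24.1 and 11.7 normalized counts with 0.8 µg, which overlaps the control, and 74.0, 56.5 and 45.7 with 80 µg. The high dose alone still stood above the control at this time, by a log2 fold change of 1.79 (SE 0.37), and above the low dose by 1.63 (SE 0.35). At 24 h Egr2 had 21.4, 6.53 and 20.6 normalized counts with 0.8 µg. With 80 µg at 24 h it had 1.10, 5.15 and 3.08, from only 1, 7 and 5 raw counts, below every library of the other groups. The order of the doses was thereby turned round, with a log2 fold change of -2.03 (SE 0.48) between doses and of -2.05 (SE 0.48) between 80 µg and control. Within the high dose, Egr2 was lower at 24 h than at 12 h by a log2 fold change of -3.84 (SE 0.45), the widest fitted step of any member between consecutive times. Between 12 h and 24 h with 0.8 µg the same step was -0.17 (SE 0.39). Leaving out replicate 1 of every group ended the dose calls of Egr2 at 12 h (1.39) and 24 h (-1.49) too, leaving out replicate 3 ended that at 24 h (-1.65), and so did the fit to only the 6 samples compared (-0.72).

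**Figure D2:**
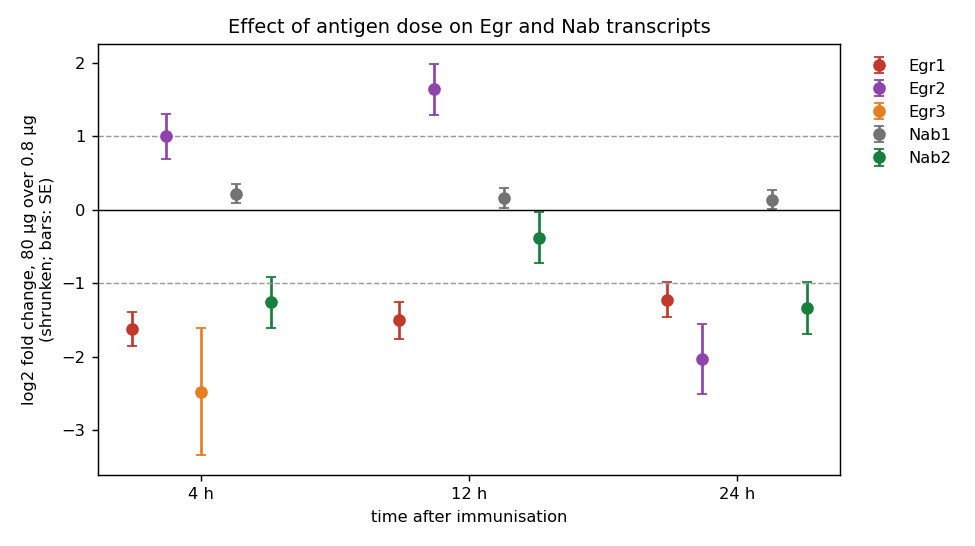
Shrunken log2 fold change of 80 µg over 0.8 µg (y axis) at each time (x axis) for the members; bars are standard errors and dashed lines mark a log2 fold change of 1 in either direction. Egr1 is below 0 at all 3 times, Egr2 goes from 1.00 and 1.63 to -2.03, Nab1 stays within 0.22 of 0, and Egr3 is drawn at 4 h only because it was at or under 3 counts in every library of both doses later.

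Egr3 encodes a factor that acts beside Egr2 and was the least counted member (ENSMUSG00000033730, chr14:70077203-70082614, plus strand, 8 exons). With 0.8 µg at 4 h it had 14, 11 and 26 raw counts, or 18.9 ± 7.94 normalized counts. With 80 µg at 4 h it had 4, 3 and 0 raw counts, and the control had 0, 3 and 0. The low dose at 4 h therefore stood apart from every other group. Summed over the libraries, 51 counts against 7 made Egr3 8.34-fold lower with 80 µg than with 0.8 µg at 4 h (95% exact interval 3.77 to 21.8). The same 51 counts against 3 in the control gave a ratio of 16.9 (5.46 to 84.5). These intervals cover counting error only. DESeq2 gave Egr3 no adjusted p in the dose comparisons, where its mean count fell below the automatic filter. It was called lower with 80 µg at 4 h when genes needed at least 10 counts in 3 samples (-2.58) and in the fit to only the 6 samples compared (-1.48). Only the 0.8 µg libraries of 4 h held 10 counts or more, so Egr3 entered both fits through the group where it was high. Nothing is therefore read from these calls. The call of Egr3 for 0.8 µg at 4 h over control was lost without replicate 1 (2.63) or replicate 3 (2.18) of every group.

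At 12 h Egr3 had 3, 1 and 2 raw counts with 0.8 µg, and at 24 h 1, 3 and 2. With 80 µg it had 0 counts in all 6 libraries of 12 h and 24 h. All of these are at or under the floor of 3 counts, so no fold between doses is given. Against its own level at 4 h, Egr3 with 0.8 µg at 12 h was 10.2-fold lower (4.36 to 29.0), from 6 summed counts. With 80 µg, Egr3 went from 7 summed counts at 4 h to 0 at 12 h, and no fold is given. The fitted log2 fold changes of these steps, called between 4 h and 12 h at both doses, lost their calls when single libraries, or replicate 1, 2 or 3 of every group, were left out, and for 80 µg also with a replicate block and with no filter on low counts. For 0.8 µg the single libraries were replicate 2 of 12 h (-2.44) and replicates 1, 2 and 3 of 4 h (-2.53, -2.52 and -1.999), and for 80 µg they were replicates 1, 2 and 3 of 12 h and replicates 1 and 2 of 4 h, with no fitted value given against a group at 0.

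Nab1, the corepressor present in most tissues, was steady. Its group means ran from 345 ± 51.5 normalized counts with 0.8 µg at 12 h to 418 ± 38 with 80 µg at 4 h, with 404 ± 38.7 in the control. Single libraries lay between 312 and 460. In the order of its 7 group means every neighbor overlapped the next, and the fitted log2 fold changes of its 13 comparisons ran from -0.23 to 0.22. It was the single member called in none of them. Its promoter window is the one with 3 Egr sites.

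Nab2, the corepressor that Egr factors induce, had 116, 118 and 117 normalized counts in the control libraries. With 0.8 µg at 4 h it had 409, 511 and 527. With 80 µg at 4 h it had 212, 226 and 151. The low dose was thus above the high dose, and the high dose above the control, with no overlap: the means were 482 ± 64.0, 196 ± 39.8 and 117 ± 0.58. Against the control, the log2 fold change was 1.98 (SE 0.35) with 0.8 µg, which was called, and 0.72 (SE 0.35) with 80 µg, which was not. Between doses it was -1.26 (SE 0.35), a call that leaving out replicate 1 of every group ended (-1.37).

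At 12 h Nab2 had 154, 179 and 257 normalized counts with 0.8 µg and 99.6, 144 and 205 with 80 µg. These groups overlap, and the log2 fold change was -0.38 (SE 0.35). From 4 h to 12 h the log2 fold change was -1.26 (SE 0.35) with 0.8 µg, a call lost without replicate 1 of every group (-1.18), and -0.38 (SE 0.35) with 80 µg. At 24 h it had 189, 140 and 266 with 0.8 µg and 78.9, 34.6 and 113 with 80 µg. The doses were apart again, with a log2 fold change of -1.34 (SE 0.35), a call that was lost in the fit to only the 6 samples compared (-0.69) and without replicate 1 of every group (-1.35). With 80 µg at 24 h every library lay below the control, by a log2 fold change of -0.61 (SE 0.36) that was not called, but was called without 80 µg replicate 3 (-1.03) and without replicate 3 of every group (-1.05). Nab2 within the high dose was lower at 24 h than at 12 h by a log2 fold change of -0.95 (SE 0.35), which was not called. It was called without 80 µg replicate 1 of 12 h (-1.18), without 80 µg replicate 3 of 24 h (-1.37), without replicate 3 of every group (-1.12) and by the adjusted p alone.

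The 3′ end of Nab2 shares 40 exon bases with that of Stat6, which is read from the other strand, and its start region shares exon bases with Nemp1. Gm16229, also on the other strand, shares 1050 exon bases with Nab2 and had 5 counts over all libraries. The library type keeps strand, but the strand setting of the counting is not stated. Stat6 had 449 ± 36.3 normalized counts with 0.8 µg at 4 h, 279 ± 8.01 with 80 µg at 4 h and 272 ± 20.2 in the control. It was thus also highest where Nab2 was, and its log2 fold change between doses at 4 h was -0.68 (SE 0.12, adjusted p = 3.83e-07 by DESeq2's Wald test with Benjamini-Hochberg adjustment). The number of Nab2 counts per Stat6 count was 1.08 ± 0.15 with 0.8 µg at 4 h, 0.70 ± 0.13 with 80 µg at 4 h and 0.43 ± 0.03 in the control, so at 4 h Nab2 differed from the control by more than Stat6 did. At 24 h with 80 µg it was 0.45 ± 0.25, which overlaps the control, and Stat6 was below the control by a log2 fold change of -0.68 (SE 0.13), beside -0.61 for Nab2. The log2 fold change of Nemp1 between doses at 4 h was -0.13 (SE 0.34). How far Stat6 reads entered the Nab2 counts was not tested.

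**Figure D3:**
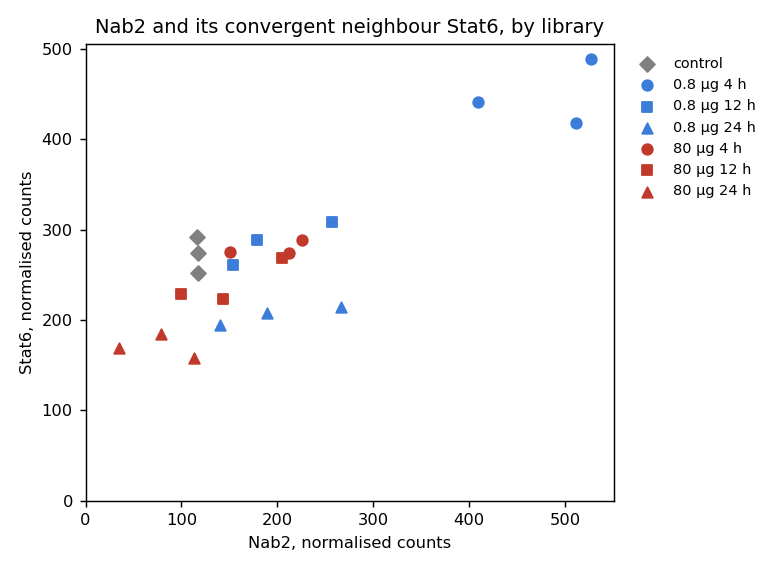
Normalized counts of Nab2 (x axis) and of its convergent neighbor Stat6 (y axis) in each of the 21 libraries, colored by dose and shaped by time. The 3 libraries of 0.8 µg at 4 h are highest in both genes, while the 80 µg libraries of 4 h lie at the Stat6 level of the control with 151 to 226 counts of Nab2.

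Seen against the control, 4 members were called higher with 0.8 µg at 4 h (Egr1, Egr2, Egr3 and Nab2), in a comparison where 40.7% of all genes were called (17.3% of all genes as higher). With 80 µg at 4 h only Egr2 was called, beside 43.5% of genes. At 12 h no member was called with 0.8 µg (37.7% of genes), whereas with 80 µg Egr2 was higher and Egr1 lower (37.9%). At 24 h no member was called with 0.8 µg (17.3%), and Egr1 and Egr2 were called lower with 80 µg (20.2% of genes in either direction, 7.91% as lower). Over time, 4 members were lower at 12 h than at 4 h with 0.8 µg, beside 20.5% of genes called (7.98% as lower), and 3 with 80 µg, beside 24.8% (9.1% as lower). Between 12 h and 24 h, none was called with 0.8 µg (26.6%) and Egr2 alone with 80 µg (27.2%). All 6 comparisons with the control share its 3 libraries.

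The likelihood ratio test of dose by time over the 18 immunized samples, which asks whether the dose effect differs between times, passed at an adjusted p below 0.05 in 10.3% of genes. Of the 4 members tested, Egr2 passed and Egr1, Nab1 and Nab2 did not. As the turn in Egr2 was known when the family was chosen, it is given as a description: its dose log2 fold changes spanned 3.67 from lowest to highest.

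Because sequencing was from the 3′ end, counts were not divided by gene length, and the shares that follow compare groups rather than genes. Egr2 made up 8.36 ± 1.64% of the counts of the 3 Egr genes in the control (SD, n = 3). With 0.8 µg the share was 14.9 ± 1.53% at 4 h, 11.7 ± 6.91% at 12 h and 7.61 ± 2.57% at 24 h. With 80 µg it was 52.8 ± 6.89%, 52.7 ± 11.9% and 3.85 ± 2.60%. At 4 h and 12 h the doses were far apart, since the lowest 80 µg library (39.2%) lay above the highest 0.8 µg library (18.7%). Put as a ratio, there were 1.17 ± 0.33 Egr2 counts per Egr1 count with 80 µg at 4 h and 0.18 ± 0.02 with 0.8 µg.

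Nab2 made up 22.5 ± 1.70% of the counts of the 2 Nab genes in the control, 57.1 ± 0.65% with 0.8 µg at 4 h and 31.9 ± 6.39% with 80 µg at 4 h. At 24 h its share was 34.3 ± 8.30% with 0.8 µg and 14.9 ± 5.89% with 80 µg. Egr counts per Nab count were 0.37 ± 0.02 in the control, 0.81 ± 0.02 with 0.8 µg at 4 h and 0.63 ± 0.08 with 80 µg at 4 h. Both doses thus had more Egr per Nab transcript than the control at 4 h, the low dose more than the high dose. At 24 h the ratio was 0.35 ± 0.09 with 0.8 µg and 0.16 ± 0.03 with 80 µg, with no overlap between doses. At 12 h the doses overlapped in this ratio (0.22 to 0.42 with 0.8 µg and 0.19 to 0.26 with 80 µg) and in the share of Nab2 (30.7 to 44.8% and 21.6 to 33.5%). With Egr1 left out of the sum, the log2 difference of the mean ratio of 80 µg from 0.8 µg was 1.26 at 4 h, 1.62 at 12 h and -2.22 at 24 h, in place of -0.35, -0.61 and -1.09, so the order of the mean ratios turned at 4 h and 12 h and not at 24 h.

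**Figure D4:**
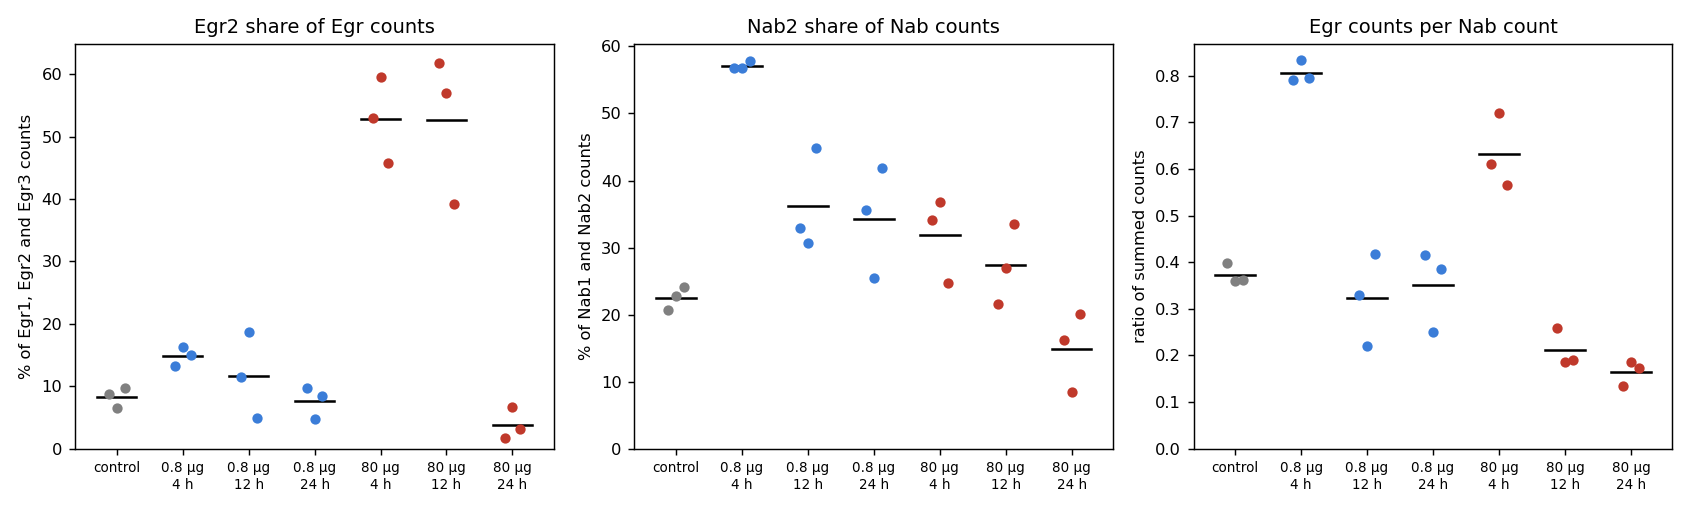
Share of Egr2 in the Egr counts (left, %), share of Nab2 in the Nab counts (middle, %) and Egr counts per Nab count (right, ratio) in each library, by group; black lines are means of 3 libraries. The Egr2 share is 39.2% or more in the 80 µg libraries of 4 h and 12 h and 18.7% or less in all others.

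Across the 21 samples of the deposited log2 values, the patterns of Egr1, Egr3 and Nab2 were close to each other (Pearson r of 0.82 for Egr1 with Egr3, 0.77 for Egr1 with Nab2 and 0.79 for Egr3 with Nab2). Egr2 followed Egr1 less (0.37) and Nab2 somewhat (0.59), and Nab1 had an r of 0.01 or less with each of the others. These values describe 7 groups of 3 libraries that share their treatment. Among 8749 genes with a mean of at least 20 normalized counts, the genes most like Egr1 were Fnbp1 (0.91), Gripap1 (0.89) and Atg16l2 (0.88). Those most like Egr2 were Plxna1 (0.93), Klf9 (0.93) and 9930104L06Rik (0.92), and those most like Egr3 were B4galnt1 (0.89), Arf3 (0.87) and Itm2a (0.87). Arf3 (0.88), Foxp4 (0.88) and Spen (0.86) were most like Nab2. Nab1 had no close match, with Mxd1 (0.66), Rab27a (0.64) and Socs3 (0.64) in front. These names move with the measure of likeness, as given in the closing section.

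The genes around the family were read from lists chosen with earlier results of these data known, each to be read beside all genes tested, of which 5.85% were called between doses at 4 h, 2.79% at 12 h and 1.56% at 24 h, with median log2 fold changes of -0.02, 0.01 and 0.02. The close relatives Egr4 and Wt1 were not detectable as expressed, Wt1 with 0 counts in every library and Egr4 at or under the floor. Upstream of the Egr genes, 14 genes of the ERK cascade and the ternary complex had a median of -0.09 between doses at 4 h, and 3 were called. Rasgrp1, which loads Ras below the receptor, fell by 1.98 with 80 µg (SE 0.15, adjusted p = 7.05e-39), and Elk3, a ternary complex factor that can repress, dropped by 1.62 (SE 0.36, adjusted p = 0.000142). Elk1, its activating relative, rose by 1.28 (SE 0.29, adjusted p = 0.000262). The 3 genes thus moved in both directions, with no call among the 14 at the later times. Leaving out replicate 1 or 3 of every group ended the call of Elk1 (1.28 and 1.08), and leaving out replicate 2 or 3 that of Elk3 (-1.32 and -1.26).

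Among 15 other immediate early genes tested, which share their early induction with Egr1, the median at 4 h was 0.39, and 3 were called, all higher with 80 µg. They were the AP-1 members Fosl1 (log2 fold change 2.05, SE 0.51, adjusted p = 0.00121), Fosl2 (1.75, SE 0.37, adjusted p = 5.49e-05) and Junb (1.07, SE 0.16, adjusted p = 6.48e-10). The direction of these 3 was opposite to that of Egr1 in the same cells. Under the fold threshold but with no overlap and an adjusted p below 0.05, Dusp5 (-0.33, SE 0.12, adjusted p = 0.0416) was lower and Ier5 (0.56, SE 0.17, adjusted p = 0.00963) was higher. Fos (-0.63, SE 0.46) was also lower, as Egr1 was, and Zfp36 (0.68, SE 0.26) higher with no overlap. Their adjusted p by DESeq2's Wald test was 0.478 and 0.0603. Junb fell under the fold threshold without 0.8 µg replicate 3 (0.99), and Fosl1 lost its call without replicate 3 of every group (1.75). Under the 17 alternatives run, Ier3 at 4 h (1.95, SE 0.70, adjusted p = 0.0579) was called in 4 (1.72 to 2.74), among them edgeR and the fit without 0.8 µg replicate 1 (2.57), and Atf3, which had no adjusted p, in 3 (2.07 to 4.81), among them edgeR and the fit without 0.8 µg replicate 2. At 12 h Nr4a1, an orphan nuclear receptor, was the single gene of this list called and fell by 2.19 with 80 µg (SE 0.38, adjusted p = 6.10e-07). Fosl1 at 12 h lay at the threshold (1.54, SE 0.52, adjusted p = 0.0525) and was called by edgeR (1.65), with TMM size factors (1.57), with at least 10 counts in 3 samples (1.56), with a replicate block (1.54) and without 0.8 µg replicate 1 (2.46). At 24 h none was called, and among the alternatives that keep the fold threshold Fosl2 was called without 0.8 µg replicate 2 (1.54).

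Of 17 tested genes tied to Egr2 or Egr3 in T cells, 12 were called between doses at 4 h, 6 higher and 6 lower with 80 µg, beside 5.85% of all genes and around a median of -0.02. Only the 3 with the largest change in each direction are named next. Higher were the cytokine signaling inhibitor Socs3 (4.06, SE 0.46, adjusted p = 3.82e-16), the transcriptional repressor Prdm1 (2.86, SE 0.55, adjusted p = 2.34e-05) and Sema7a (2.41, SE 0.32, adjusted p = 3.22e-12). Lower were Id3, an inhibitor of E proteins (-2.07, SE 0.28, adjusted p = 1.85e-11), the adhesion receptor Crtam (-1.91, SE 0.31, adjusted p = 2.73e-08) and the death ligand Fasl (-1.75, SE 0.27, adjusted p = 7.18e-09). Against the control, however, Socs3 and Prdm1 at 4 h stood at log2 fold changes of 0.55 (adjusted p = 0.277) and -0.67 (adjusted p = 0.145) with 80 µg, and fell by 3.51 and fell by 3.53 with 0.8 µg (adjusted p = 3.77e-13 and 9.38e-09). At 4 h these 2 genes were thus below the control with the low dose and were not called with the high dose.

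At 12 h, 6 genes of this list were called, beside 2.79% of all genes. Prdm1 (3.20, SE 0.43), Cdkn1a, an inhibitor of cyclin-dependent kinases (2.13, SE 0.47), and Socs3 (1.55, SE 0.44) were higher with 80 µg (adjusted p = 3.42e-11, 0.000379 and 0.0115). The costimulatory receptor Tnfrsf9 (-1.79, SE 0.35), Nrn1 (-1.51, SE 0.36) and Fasl (-1.21, SE 0.33) were lower (adjusted p = 3.02e-05, 0.00121 and 0.00684). At 24 h, where 1.56% of all genes were called, 5 of the list were, Cdkn1a (2.01), Prdm1 (1.36) and Socs3 (1.34) higher and Nrn1 (-1.65) and Tnfrsf9 (-1.45) lower, with adjusted p of 0.0148, 0.0241, 0.0411, 0.000205 and 0.00401. Many of these calls changed under some of the 17 alternatives. At 12 h Fasl lost its call in 5 (-1.16 to -0.78), Socs3 in 5 (0.62 to 1.58), Cdkn1a in 2 (1.82 and 1.97) and Tnfrsf9 in 1 (-1.62), and at 24 h Prdm1 lost it in 9 (0.83 to 1.38), Socs3 in 8 (1.09 to 1.38), Cdkn1a in 7 (0.76 to 2.13) and Tnfrsf9 in 3 (-1.52 to -0.90). Conversely, genes not called in the fit to all samples were called in some, Sema7a at 24 h in 5 (at most 1.90) and at 12 h in 2 (1.05 and 1.06), Nrn1 at 4 h in 6 (-1.31 to -0.99), and Bcl6 (-1.04 and -0.88) and Id3 (-1.03 and -0.81) at 24 h in 2 each. At 4 h Cdkn1a lost its call in 3 (1.49 to 1.61) and Tnfrsf9 in 1 (-1.32). Single libraries ended several calls. At 12 h Fasl was not called without 0.8 µg replicate 2 (-0.93) or 80 µg replicate 3 (-1.02), and Socs3 not without 0.8 µg replicate 3 (1.20) or 80 µg replicate 3 (1.12). At 24 h Prdm1 lost its call without any 1 of 5 libraries, 0.8 µg replicate 1 (1.10) or 2 (1.25) or 80 µg replicate 1 (1.25), 2 (1.38) or 3 (1.36), and Socs3 without the same libraries (1.09, 1.21, 1.37, 1.38 and 1.15). Cdkn1a at 24 h lost it without 0.8 µg replicate 1 (1.82) or 2 (1.67) or 80 µg replicate 3 (1.92), and Tnfrsf9 without 0.8 µg replicate 3 (-0.90).

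Of 9 genes known as Egr1 targets, 2 rose with 80 µg at 4 h, although Egr1 itself was lower. They were Il2, the T cell growth factor (3.21, SE 0.33, adjusted p = 1.07e-19), and its receptor chain Il2rb (1.31, SE 0.16, adjusted p = 6.48e-14), and the median of the list was -0.21. At 12 h Il2 was higher (1.97, SE 0.38, adjusted p = 1.68e-05) and Cd44, an adhesion receptor of activated cells, was lower (-1.20, SE 0.23, adjusted p = 1.20e-05). At 24 h no gene of this list was called, while Egr1 and Egr2 were both lower with 80 µg. Under the fold threshold but with no overlap at 24 h, Tnf and Trp53 were lower and Il2rb was higher with 80 µg. Their log2 fold changes were -0.83 (SE 0.26), -0.60 (SE 0.16) and 0.55 (SE 0.16), with adjusted p of 0.0268, 0.00609 and 0.0124 by DESeq2's Wald test. Among the alternatives that keep the fold threshold, Tnf was called at 24 h without 0.8 µg replicate 3 (-1.01) and without replicate 1 (-1.03) or 3 (-1.02) of every group.

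**Figure D5:**
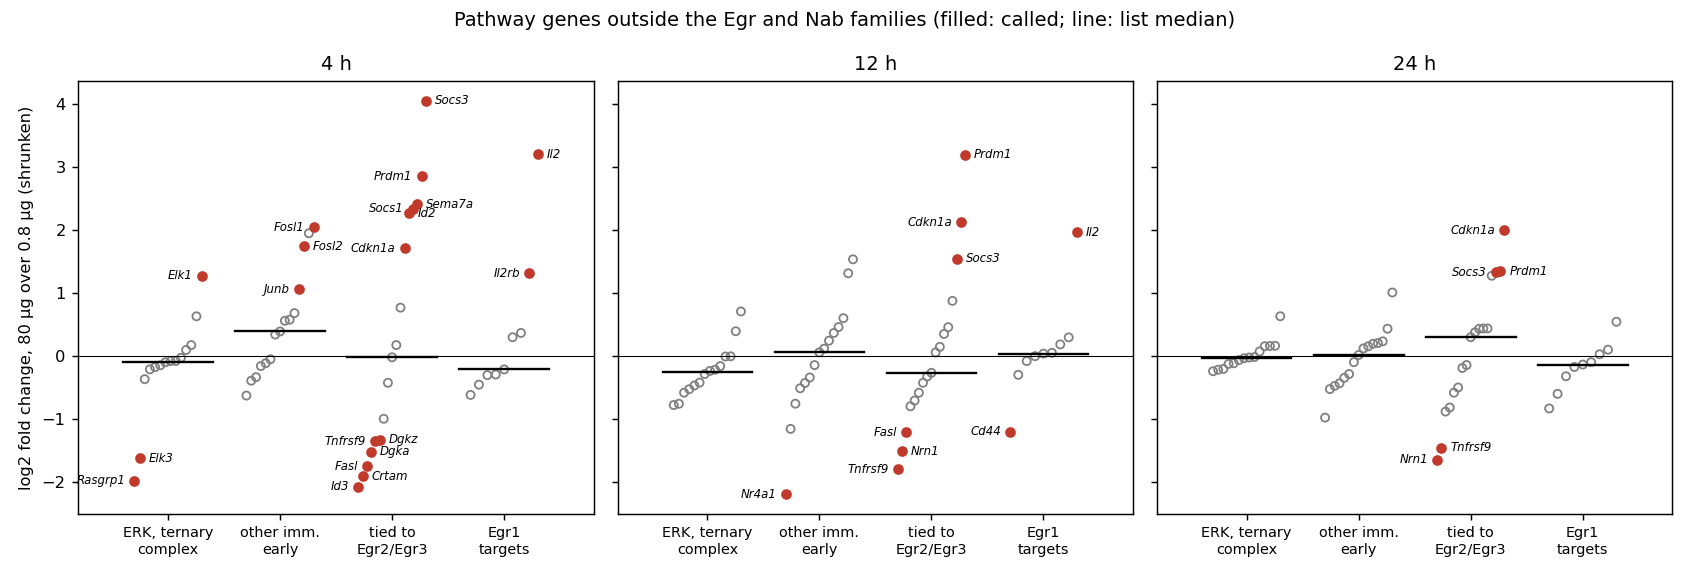
Shrunken log2 fold change of 80 µg over 0.8 µg (y axis) for the tested genes of 4 lists (x axis) at 4 h, 12 h and 24 h; filled points were called, open points were not, and black lines are list medians. At 4 h the called immediate early genes (Fosl1, Fosl2 and Junb) are all above 0, whereas the genes tied to Egr2 or Egr3 split into 6 above and 6 below.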

How the data were processed

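The authors' raw counts come from QuantSeq Forward reads (Bbduk trimming, STAR alignment to GRCm38, HTSeq-count), and the deposited log2 values are their regularized log of genes with enough reads. The annotation release and the strand setting are not given in the sources used here. All 21 samples were fitted with DESeq2 1.42.0 in R 4.3.3 (Wald test by group, normal prior shrinkage, genes of at least 10 counts), as in the study's methods, and called at an adjusted p below 0.05 with a shrunken log2 fold change above 1 in size. A likelihood ratio test compared dose effects between times. Both were run on simulated data, with large changes in well counted genes and the same spread for every gene. That run does not cover low counts or changes near the threshold. The smallest library held 2352800 counts. Replicates are separate mice, so p-values measure the spread between mice. The members and lists were chosen with earlier results of these data known. Besides the members, text names follow a rule: up to 3 called genes each way per list and dose comparison, the 3 genes most like each member, overlapping genes and markers. Genes named for a call gained under an alternative alone (Tnf, Ier3, Atf3, Bcl6 and the like), or for a lack of overlap under the fold threshold, were chosen after their values were seen. Same-numbered replicates did not deviate together (median r of -0.01 over 63 pairs), so they were not taken as pairs. Alternatives included edgeR 4.0.16, other filters and left-out libraries. Locations are from GENCODE vM21, and promoters from RefSeq.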

Additional observations from a re-analysis of the deposited data

Results flagged for a closer look

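The dose effect on Egr2 changed direction between times, and its largest and smallest log2 fold changes differed by 3.67; it passed the interaction test over all genes, but the gene was chosen with this known. The interaction test (DESeq2's likelihood ratio test of dose by time) passed 20 pathway genes, beside 10.3% of all genes. Among the pathway genes named for a call between doses, it marked 12 whose dose effect differed between times. The spread between their largest and smallest dose log2 fold changes was 1.51 for Elk1, 1.87 for Rasgrp1, 2.33 for Elk3, 1.41 for Junb, 2.72 for Socs3, 1.85 for Prdm1, 1.54 for Sema7a, 2.13 for Id3, 3.38 for Il2, 1.26 for Il2rb, 2.08 for Nr4a1 and 1.11 for Cd44. Time and sorting gate cannot be told apart in these differences.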

How the results depend on the processing

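No called value changed sign under the alternatives run. With the adjusted p alone, 1301, 699 and 573 genes differed between doses at 4 h, 12 h and 24 h, in place of 635, 311 and 151. The same setting gave 4551 and 5048 genes for 0.8 µg and 80 µg at 24 h against control, and 4822, 5689, 5415 and 5907 for the steps in time (0.8 µg at 12 h and 24 h, then 80 µg at 12 h and 24 h). It called 2 members from 12 h to 24 h with 80 µg, and 14 pathway genes at 12 h and 12 at 24 h between doses, in place of 9 and 5. Fitting just the 6 libraries of a dose comparison gave 145 calls at 12 h and 83 at 24 h, with 1 member and 3 pathway genes at 24 h, and no filter on low counts also left 3 pathway genes at 24 h.

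Leaving out replicates gave 413 to 642 genes at 4 h, 168 to 330 at 12 h and 83 to 157 at 24 h, with 1 to 3, 1 to 2 and 1 to 3 members and 15 to 22, 6 to 10 and 2 to 5 pathway genes. Members called ranged from 1 to 3 for 80 µg at 24 h against control, 3 to 4 for 0.8 µg at 4 h against control, 2 to 4 and 2 to 3 from 4 h to 12 h with 0.8 µg and 80 µg, and 1 to 2 from 12 h to 24 h with 80 µg. The interaction test passed 368 to 758 genes in place of 1035, and 14 to 19 pathway genes in place of 20. Fewer samples were tested in these fits.

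The labels give replicate numbers and name no batch, and whether same-numbered libraries were sorted or processed together is not stated. A replicate block in the model gave 611, 288 and 138 genes called between doses at 4 h, 12 h and 24 h, and with it Egr2 at 4 h (0.99) and Egr3 from 4 h to 12 h with 80 µg lost their calls, while Fosl1 at 12 h between doses gained one (1.54, adjusted p = 0.049). No other call of a member in the 13 comparisons, or of a pathway gene between doses, changed. The interaction test with a replicate block passed 902 genes and 18 pathway genes, in place of 1035 and 20.

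On the deposited log2 scale, the span of group means was 4.65 for Egr2 and 1.97 for Egr3, which that transformation draws toward the mean at low counts. The Egr to Nab ratio without Egr1 differed between doses by 1.26, 1.62 and -2.22 on the log2 scale at 4 h, 12 h and 24 h, in place of -0.35, -0.61 and -1.09, so the order of the group means turned at 4 h and at 12 h, where the doses overlap with Egr1 in the sum, and as a mean of log2 values by -0.58 at 4 h. Of the 3 genes named as most like each member, Spearman's rho kept 1 for Egr1, 1 for Egr2, 0 for Egr3, 1 for Nab1 and 0 for Nab2, and the 18 immunized samples alone kept 1, 1, 1 and 0 for Egr1, Egr2, Egr3 and Nab1. The depth of these libraries limits Egr3, and Egr2 with 80 µg at 24 h, to a handful of counts, and no statement on their absence is made.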
